A study of Mus musculus with 2 samples.

Results

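The clustered histone genes of the mouse were taken as every row of both deposited expression matrices whose symbol starts with Hist1h, Hist2h, Hist3h or Hist4h. This rule found 61 genes of the 14366 in the matrices: 49 in the Hist1 group on chromosome 13, 9 in the Hist2 group on chromosome 3, 2 in the Hist3 group on chromosome 11 and 1, Hist4h4, on chromosome 6. By protein they were 5 H1, 16 H2A, 16 H2B, 12 H3 and 12 H4 genes. The level of a gene is given in CPM, the molecules of that gene per 1000000 captured molecules of the same cells. The assay counts 1 tag per captured molecule near its 3′ end, so levels were not divided by gene length.

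The cells were hematopoietic stem cells sorted as Lin−Sca-1+c-Kit+CD150+CD48− from the pooled marrow of 8 wildtype C57/B6 mice aged 6 to 8 weeks. They were cultured in Myelocult M5300 medium whose supplements, the same for both cultures, included SCF at 100 ng/ml and Primocin. One culture received vehicle (sterile water) and the other 10 µM DFO (deferoxamine, an iron chelator), each for 48 h, after which 20000 live cells of each were loaded for droplet 3′ RNA-seq. There was 1 library per treatment, so no comparison has a test, and the intervals below are 95% intervals for counting error that leave out the spread between cells and between cultures.

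Histones package DNA: H2A, H2B, H3 and H4 form the core of the nucleosome, and H1 binds the linker DNA where it leaves that core. Most clustered histone genes are transcribed while DNA is copied in S phase, and their mRNAs characteristically end in a conserved stem-loop in place of a poly(A) tail. The stem-loop is bound by SLBP, and the mRNAs are degraded when replication ends. The library method primes on poly(A), so it sees chiefly histone transcripts that carry a tail or an internal run of A. Which of these gave the molecules counted here was not tested.

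The vehicle library held 8708 cells and 260938938 molecules (median 27805.5 per cell), and the DFO library held 9852 cells and 284326017 molecules (median 27114). Both libraries contained 24 cell barcodes in common. Of 16 stem cell markers, 13 reached 10 CPM in at least 1 library, and their summed levels were 733 CPM (vehicle) and 760 CPM (DFO). Megakaryocyte markers, 7 of 12 in the matrices at 10 CPM or more, summed to 1724 and 755 CPM in the same order. The 7 neutrophil-monocyte markers in the matrices, 2 of them at 10 CPM or more, summed to 195 and 178 CPM. The 9 erythroid markers, also with 2 at 10 CPM or more, summed to 885 and 858 CPM.

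The ends of the annotated transcripts are shown first, because they set what a poly(A)-primed assay can count. In the GENCODE M21 transcripts (GRCm38), the stem-loop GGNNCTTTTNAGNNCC was found in 40 of 61 members. For 9 members, all under 10 CPM, the annotated transcript is the coding sequence alone. These 9 have no annotated end in which a stem-loop or poly(A) signal could lie. The stem-loop was thus found in 40 of the 52 other members. It was found in 10 of the 13 members that reached 10 CPM in at least 1 library. The 30-base windows below are from transcripts that carry the main results, 5′ to 3′, with the stem-loop in capitals.
Hist1h2ap: aaaaaaaaaaaaGGCTCTTTTCAGAGCCat
Hist1h2ae: aaaaaaaacaaaGGCTCTTTTCAGAGCCat
Hist1h1e: caacaacccaaaGGCTCTTTTCAGAGCCac
Hist1h1c: aacaatccaaaaGGCTCTTTTCAGAGCCac
Hist1h4d: ccaaaaaccaaaGGCCCTTTTCAGGGCCac
Hist1h4i: atgctacttaaaGGCCCTTTTTAGGGCCac
Hist2h2ac: cgaatccaaaaaGGCTCTTTTTAGAGCCac
The H1 and H2A members printed share the stem GGCTC and the H4 members the stem GGCCC. Hist1h2ap (chr13:21833026-21833507, minus strand) is set apart by a run of 12 A directly before its stem-loop, and its annotated transcript ends 3 bases after the loop. Hist1h2ae (chr13:23570517-23571220, minus strand) has a run of 8 A just upstream of its loop but not adjoining it, and its transcript goes on for 151 bases after the loop. Hist1h1c, Hist1h4d and Hist1h4i run on for 840, 770 and 330 bases after it. The exact motif was not matched in the annotated transcripts of Hist1h1b, Hist1h1a and Hist1h2bc. A poly(A) signal (AATAAA or ATTAAA) lay in the last 50 bases of 15 of the 61 transcripts and of 4 of the 13: Hist1h2ae, Hist1h4i, Hist1h1c and Hist1h2be.

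Sequence sharing limits some of these members. Every 91-base window (the length of the read) in the last 300 bases of Hist1h2ap was also present in another annotated transcript, among them that of its near-identical copy Hist1h2ao. Hist1h2ao itself was credited with 37 molecules in vehicle and 36 in DFO. The last 300 bases of Hist1h1e lie wholly inside overlapping transcripts of Hist1h2be and Gm11398 on the same strand. The sources used here do not say how reads common to several copies were assigned. The values of Hist1h2ap and Hist1h1e are therefore uncertain as to which gene they belong to. Those of Hist1h2be are too, since its transcripts cover the end of Hist1h1e, although 0 of 210 windows in its own last 300 bases were shared.

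RefSeq promoters (GRCm38.p6) were matched for 56 of the 61 members, and Hist1h2bc was not among them. A window of 250 bases before to 50 after the start was searched on both strands for the TATA box TATAAA, the CCAAT box CCAAT and the octamer ATTTGCAT, none of which contains another. TATAAA was present in 57.1% of member promoters and in 13.6% of 32851 promoters of the same length. CCAAT was present in 85.7% against 37.4%, in every H1, H2A, H2B and H3 promoter matched but in 3 of 11 H4 promoters. The octamer was present in 19.6% against 1.74%, among the H2A and H2B promoters only. Windows of neighbouring members on opposite strands can overlap, so 1 match can count for both. Those of Hist1h2ae (chr13:23571171-23571470, minus strand) and Hist1h2bg (chr13:23571150-23571449, plus strand) are an example. A match describes letters and is not a bound site. The letters were matched exactly and at any position in the window, so other forms of a TATA box were not counted. The stretches from 150 bases before to 20 after the start of 4 members with different behaviour across the cycle follow, with motifs in capitals.
Hist1h1b, chr13:21780606-21780775, minus strand: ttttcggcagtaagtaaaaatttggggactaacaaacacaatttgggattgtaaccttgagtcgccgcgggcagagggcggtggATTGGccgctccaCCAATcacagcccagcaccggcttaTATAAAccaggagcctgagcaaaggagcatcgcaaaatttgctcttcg
Hist1h2ap, chr13:21833456-21833625, minus strand: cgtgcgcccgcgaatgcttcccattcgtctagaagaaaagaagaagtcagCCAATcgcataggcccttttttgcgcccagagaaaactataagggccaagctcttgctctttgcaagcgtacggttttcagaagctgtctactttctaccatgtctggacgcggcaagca
Hist1h4i, chr13:22041343-22041512, minus strand: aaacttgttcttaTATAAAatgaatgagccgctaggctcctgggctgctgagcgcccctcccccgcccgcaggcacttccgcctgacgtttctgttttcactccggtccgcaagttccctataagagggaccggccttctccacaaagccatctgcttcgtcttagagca
Hist1h1c, chr13:23738657-23738826, plus strand: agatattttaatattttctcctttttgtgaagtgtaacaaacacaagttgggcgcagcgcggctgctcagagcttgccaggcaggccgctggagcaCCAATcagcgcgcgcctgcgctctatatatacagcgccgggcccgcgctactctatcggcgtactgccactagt
Hist1h1b, the member that differed most between phases, holds a pair of CCAAT boxes in opposite orientation and a TATA box. Hist1h2ae and Hist1h2bh also hold such a pair. The window of Hist1h2ae also holds TATAAA and the octamer, both on the opposite strand and far upstream, toward the start of Hist1h2bg. Which of these 2 genes they serve was not tested. Hist1h2ap and Hist1h1c, which behaved differently across the cycle, both hold CCAAT but no exact TATAAA in the window searched. Hist1h1c does hold the related letters tatatata shortly before its start, so it is not shown to lack a TATA box. A link between these letters and phase was not tested. Hist1h4i, which differed little between phases, holds no CCAAT box in the whole window searched. Its TATAAA lies near the upstream end of the stretch printed, far from the start.

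The clustered histone genes together made up 864 CPM (95% interval 860 to 868) of the vehicle molecules and 859 CPM (856 to 863) of those under DFO. Few members carried that sum: 13 reached 10 CPM in at least 1 library, 48 did not, and 18 stayed under 1 CPM in both, although none was without a molecule. Hist1h1b alone, a linker histone gene, gave 31.4% of the molecules and the 5 leading members gave 64.2%. By protein, H1 genes held 53.9% of the histone molecules in vehicle, H2A 18.8%, H4 14.4%, H2B 7.39% and H3 5.48%. The proteins H2A, H2B, H3 and H4 enter the nucleosome in equal numbers, so these captured shares do not follow the proteins' proportions.

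Among linker histones, the vehicle and DFO levels of Hist1h1b were 278 and 263 CPM. Those of Hist1h1e were 106 and 93.7 CPM and those of Hist1h1c 35.05 and 29.9 CPM. Hist1h1d had 23.9 and 21.3 CPM, and Hist1h1a 23.4 and 23.5 CPM. RefSeq calls these genes H1f5, H1f4, H1f2, H1f3 and H1f1, and they are the whole linker set of the list. The spread of the 5 was more than 10-fold within each library although they encode the same class of protein.

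Of the H2A genes, Hist1h2ae had 66.3 CPM (vehicle) and 69.7 CPM (DFO). Hist1h2ap had 49.1 and 69.4 CPM, and Hist2h2ac, a member outside the chromosome 13 group, 17.96 and 16.8 CPM. Of the H4 genes, Hist1h4i had 54.0 and 55.5 CPM and Hist1h4d 53.0 and 58.5 CPM. The Poisson intervals of these 2 H4 genes overlapped in vehicle (53.1 to 54.9 and 52.1 to 53.9 CPM). Core histones of the other types were low: Hist1h3d was the 1 H3 gene to reach 10 CPM (21.9 and 23.0 CPM), and Hist1h2bc (15.2 and 12.6 CPM) and Hist1h2be (12.8 and 12.6 CPM) were the 2 H2B genes to do so. Just under the minimum lay Hist4h4 (7.85 and 9.15 CPM), Hist1h3c (7.79 and 7.69 CPM) and Hist1h2bh (6.25 and 7.66 CPM).

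**Figure D1:**
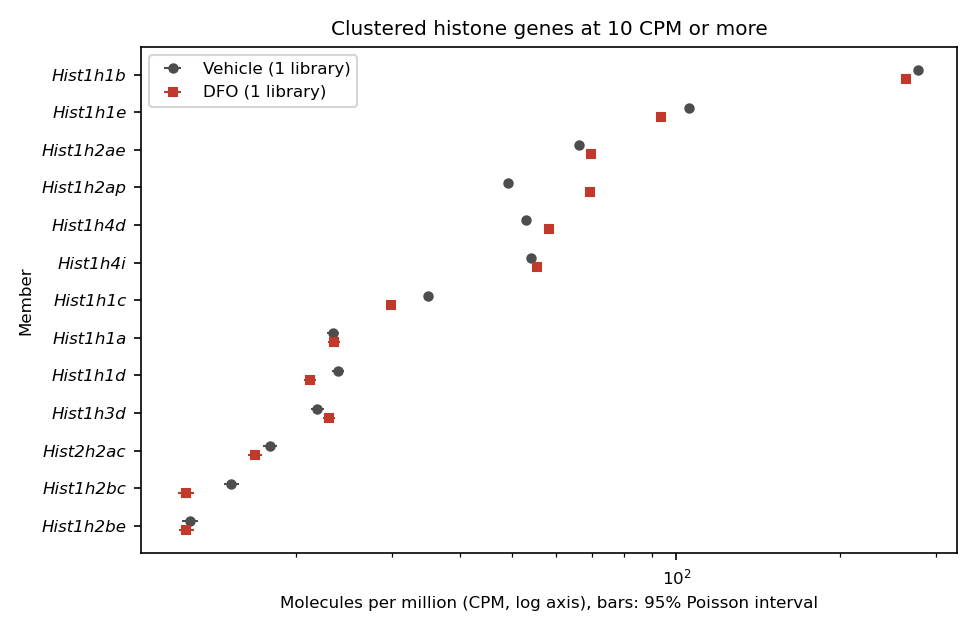
The horizontal log axis gives the level in CPM of each of the 13 members at 10 CPM or more, with circles for the vehicle library, squares for the DFO library and bars for 95% Poisson intervals. Hist1h1b lies highest at 278 and 263 CPM, and Hist1h2ap shows the widest gap between libraries (49.1 and 69.4 CPM).

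Phases were then assigned to cells from genes that include no clustered histone gene. Cells were thinned to 10000 molecules and scored for S phase and G2/M genes, and cells low in both scores were called G1-like. A phase here is a range of scores and not a cell type. In vehicle 642 cells were G1-like, 2697 in S and 5018 in G2/M, and in DFO the numbers were 458, 3276 and 5685. Of the G1-like cells, 32.6% in vehicle and 37.8% in DFO lay within 0.05 score units of a boundary. G1-like cells were shallower, with a median of 17804.5 molecules in vehicle against 25883 in S and 32318 in G2/M, and held 1091 CPM of stem cell markers against 725 and 708 CPM. The part of depth and of cell type in the phase differences was not tested over the whole library, and values within clusters are given further on.

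The summed histone level was 279 CPM in G1-like, 777 CPM in S and 944 CPM in G2/M cells of the vehicle library. In DFO the 3 levels were 282, 794 and 916 CPM. On the log2(CPM + 1) scale, S exceeded G1-like by 1.48 (1.42 to 1.53) in vehicle and by 1.49 (1.43 to 1.55) in DFO. The thinned cells show the same order: the median number of histone molecules per 10000 was 2 in G1-like, 5 in S and 8 in G2/M cells of both libraries. Cells differed widely within a library, since the tenth of cells with most histone molecules held 27.0% of them in vehicle and 26.2% in DFO, and 5.28% and 5.50% of thinned cells held none.

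Members were called replication-linked when S exceeded G1-like by at least 1 on the log2 scale in vehicle. This choice used the vehicle values, and the DFO library gives values it did not use. Of the members, 9 were so called, 9 of 13 at 10 CPM or more, where 2.71% of 7718 genes passed the same rule. In vehicle G1-like cells Hist1h2ap (9.64 CPM), Hist1h1d (8.36), Hist1h3d (7.08), Hist1h1a (4.10) and Hist2h2ac (2.82) were under 10 CPM. They passed the minimum only through their S level, which the rule itself compares. The same minimum held for the 7718 genes. In DFO, S exceeded G1-like by 1.09 to 3.34 in these 9 members, and 2.45% of 7711 genes passed the rule there. Hist4h4 passed it in DFO as well (1.03, from 5.05 to 11.3 CPM), having entered through its S level, and missed it in vehicle (0.63). G2/M exceeded G1-like by at least 1 in the same 9 members in vehicle (beside 3.59% of 7795 genes) and in DFO (3.36% of 7788). It was lower by at least 1 in Hist1h2bc in both (beside 1.92% and 1.96% of genes). For the 9 members, the vehicle G2/M comparison reuses the G1-like levels by which they were chosen and is not a separate result.

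Hist1h1b had the steepest profile. It stood at 26.4 CPM in G1-like, 265 CPM in S and 302 CPM in G2/M cells of the vehicle library, and at 24.4, 256 and 279 CPM in DFO. At equal depth 16.04% of G1-like vehicle cells held a Hist1h1b molecule against 63.0% of S cells. Without thinning these shares were 24.9% and 77.2% at median depths of 17804.5 and 25883 molecules. No cell type in the culture lacks histones, so a background share from free RNA could not be measured.

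Hist1h1a, the second of the H1 genes by this measure, was higher in S than in G1-like cells by 2.46 in vehicle (2.12 to 2.81, from 4.10 to 27.0 CPM) and by 1.89 under DFO (1.55 to 2.25, from 6.65 to 27.3 CPM). Its S level was above its G2/M level (23.2 CPM in vehicle), and Hist1h3d had the same order (23.4 and 22.3 CPM). In vehicle, the other 7 replication-linked members were highest in G2/M. Hist1h2ae went from 10.1 to 54.2 and 75.8 CPM in vehicle, Hist1h2ap from 9.64 to 40.4 and 55.7 CPM, and Hist2h2ac from 2.82 to 13.9 and 20.8 CPM. Hist1h1e exceeded its G1-like level by 1.43 in S, Hist1h4d by 1.46 and Hist1h1d by 1.26.

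Hist1h4i and Hist1h1c varied less. Hist1h4i stood at 36.2 CPM in G1-like, 52.0 CPM in S and 56.2 CPM in G2/M cells of vehicle, a difference of 0.51 (0.37 to 0.66) between S and G1-like. Hist1h1c, the 1 member within 0.5 of 0 and so called steady, differed by 0.40 (0.22 to 0.59), with 21.3, 28.5 and 38.9 CPM. Its interval lay above 0, and in G2/M it exceeded G1-like by 0.84. Hist2h2be, another gene known for expression outside S phase, had S minus G1-like differences of -0.14 in vehicle and -0.15 in DFO, both intervals holding 0. Its level near 2 CPM was too low for the 10 CPM minimum, and adding 1 to the CPM shrinks differences there. It rested on 29 molecules in G1-like vehicle cells, so how steady it was is not shown.

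Hist1h2bc, an H2B gene known for a polyadenylated mRNA outside S phase, was not steady and was the 1 of the 13 members that ran opposite to the rest. It stood at 53.0 CPM in G1-like, 19.5 CPM in S and 10.8 CPM in G2/M cells of vehicle, and at 50.7, 19.0 and 8.09 CPM in DFO. In G1-like cells it was thus the highest of the 61 members, above Hist1h4i (36.2 CPM) and Hist1h1b (26.4 CPM). S was below G1-like by a log2 difference of -1.40 (-1.53 to -1.26) in vehicle and -1.37 (-1.52 to -1.22) in DFO, beside 1.17% and 1.15% of genes lower by 1 or more. Counted per cell, without division by the total, the order was the same: 0.967 molecules per G1-like, 0.532 per S and 0.374 per G2/M cell of vehicle. At equal depth 34.4% of G1-like, 16.4% of S and 9.94% of G2/M vehicle cells held a molecule, and without thinning 47.4%, 34.5% and 24.1%. Hist3h2a, an H2A gene of the chromosome 11 group, was also lower in S (3.07 CPM in vehicle) than in G1-like (7.34 CPM) or G2/M (8.02 CPM) cells, below the minimum level.

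**Figure D2:**
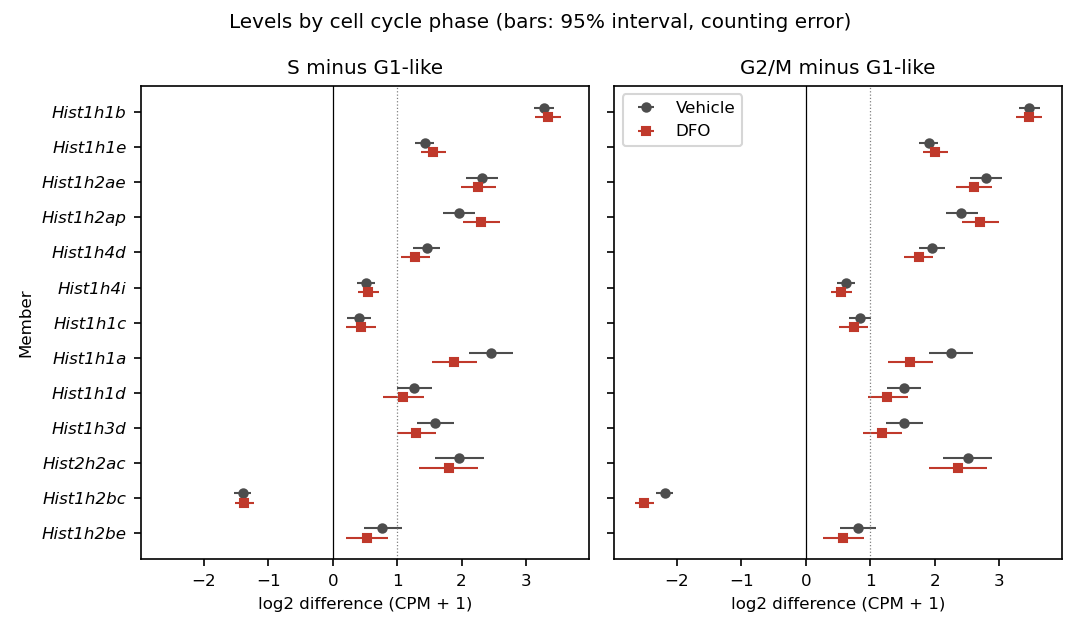
The horizontal axes give log2 differences in CPM + 1 of S (left) and G2/M (right) cells from G1-like cells for the 13 members, with circles for vehicle, squares for DFO, bars for 95% counting intervals and a dotted line at the limit of 1. Hist1h1b lies farthest right (3.28 in vehicle and 3.34 in DFO for S), and Hist1h2bc alone lies left of 0.

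A finer order came from 12 sectors of the plane of the S and G2/M scores, a view added after the data were seen. The sectors were centred on the median of each score, so low and high here mean below and above the median. Sectors 1 to 3 hold cells low in both scores, 4 to 6 cells high in S, 7 to 9 cells high in both and 10 to 12 cells high in G2/M alone. Sectors 1 to 3 are thus not the G1-like group: they held 1320 vehicle cells with a histone sum of 450 CPM. The histone sum was lowest in sector 3 of vehicle (398 CPM) and in sector 2 of DFO (398 CPM), and highest in sector 8 of both (1306 and 1230 CPM). Hist1h1b spanned 5.60-fold in vehicle and 5.43-fold in DFO, and Hist1h4i 1.60-fold and 1.53-fold. Hist2h2ac, with fewer molecules, spanned 6.02-fold in vehicle and 3.79-fold in DFO. Hist1h2bc mirrored them, from 58.9 CPM in sector 2 to 5.76 CPM in sector 10, a 10.2-fold span in vehicle and a 9.09-fold span in DFO. The smallest sector held 186 cells in vehicle and 175 in DFO.

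**Figure D3:**
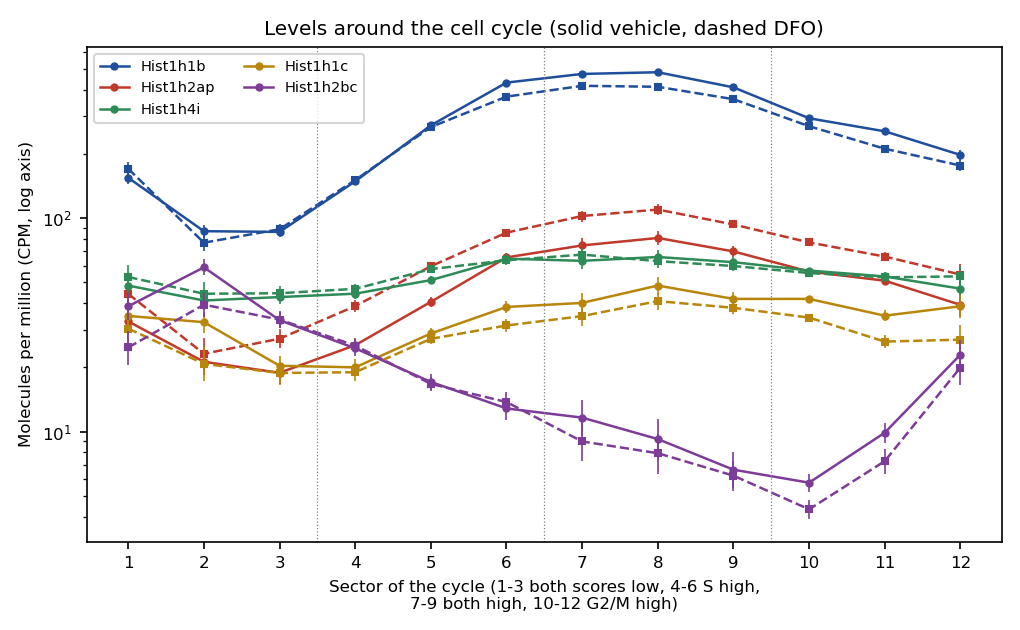
The horizontal axis gives 12 sectors of the cell cycle score plane and the vertical log axis the level in CPM, with solid lines and circles for vehicle, dashed lines and squares for DFO and bars for 95% Poisson intervals. Hist1h1b rises toward sectors 7 and 8 in both libraries, and Hist1h2bc falls from sector 2 (58.9 CPM in vehicle) to sector 10 (5.76 CPM).

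The phase pattern was also read inside single clusters of cells. The cells were clustered without clustered histone, cell cycle, ribosomal and mitochondrial genes into 7 clusters, of which 2, 3 and 5 could be called HSC-like, neutrophil-monocyte-like and megakaryocyte-like from their markers. The HSC-like cluster held 1423 vehicle and 1511 DFO cells. Within it, vehicle G1-like and S cells differed for the histone sum (250 and 603 CPM) and for Hist1h1b (14.1 and 182 CPM). Hist1h2bc stood at 55.7 CPM in its G1-like and 24.3 CPM in its S cells, a difference of -1.16 (-1.35 to -0.98), and in DFO the difference was -1.10. In unnamed cluster 1, led by Lpl and Csrp3, the Hist1h2bc difference was -1.42 in vehicle and -1.57 in DFO. The opposite course of Hist1h2bc between S and G1-like cells was therefore present within both clusters with at least 50 cells of each phase. Between G2/M and S cells the sign differed by cluster: in vehicle Hist1h2bc was higher in G2/M within the HSC-like cluster (38.0 against 24.3 CPM) and lower within the megakaryocyte-like cluster (8.67 against 26.9 CPM). Within the HSC-like cluster of DFO the levels were 24.2 and 22.9 CPM, with an interval of the difference that held 0. The histone sum of vehicle was higher in G2/M than in S within clusters 1, 2 and 3 (differences of 0.23, 0.46 and 0.38). Within the megakaryocyte-like cluster the difference was 0.01 (-0.04 to 0.05). Cluster 4 had the opposite order, with -0.67 (-0.74 to -0.60) in vehicle and -0.90 in DFO.

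Across clusters of the vehicle library the histone sum ran from 313 CPM in unnamed cluster 4 to 1109 CPM in the neutrophil-monocyte-like cluster. The megakaryocyte-like cluster had 1045 CPM and unnamed cluster 0, led by mitotic genes such as Nusap1 and Ube2c, 987 CPM. The HSC-like cluster had 557 CPM. Phase moved with cluster: 29.7% of HSC-like vehicle cells were G1-like against 2.07% of neutrophil-monocyte-like and 0.155% of megakaryocyte-like cells. Cluster 4 was the exception, with 0.998% of its vehicle cells G1-like and 71.6% in G2/M but the lowest histone sum and Hist1h1b at 49.0 CPM. Hist1h2bc was highest in the HSC-like cluster (34.1 and 28.3 CPM, vehicle and DFO) and lowest in cluster 0 (4.36 and 4.38 CPM). Cluster 6 was shallow, with a median of 7008 molecules, and its values (694 CPM in vehicle) rest on fewer molecules.

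The histone sum hardly differed between the libraries, with a log2 difference of DFO from vehicle of -0.00748 (-0.0157 to 0.000774), beside a median of 0.02 over 7476 genes. Within clusters it differed in both directions: it was higher in DFO in 5 of 7, led by cluster 4 with 0.19 (0.15 to 0.23) and the HSC-like cluster with 0.15 (0.12 to 0.18), and lower in cluster 0 (-0.04) and the megakaryocyte-like cluster (-0.06). All 7 counting intervals left out 0. Of all cells, the megakaryocyte-like share was 14.8% (vehicle) and 8.78% (DFO). The composition of the sum differed too. H1 genes went from 53.9% (53.7 to 54.1) of histone molecules to 50.2% (50.1 to 50.4), H2A genes from 18.8% (18.7 to 19.0) to 21.5% (21.4 to 21.7) and H4 genes from 14.4% (14.3 to 14.5) to 15.6% (15.4 to 15.7). H2B genes went from 7.39% (7.28 to 7.50) to 7.17% (7.06 to 7.27), and H3 genes held 5.48% in both. In CPM the H1 sum was lower by a log2 difference of -0.11 (-0.12 to -0.10), and the H2A sum higher by 0.19 (0.17 to 0.20) and the H4 sum by 0.10 (0.08 to 0.13). Without Hist1h2ap the H2A sum was higher by 0.03 (0.00 to 0.05), so that 1 gene carried most of the H2A difference. Without Hist1h1b the H1 sum was lower by a difference of -0.16, and without Hist1h4d the H4 sum was higher by 0.08.

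One of the 13 members, Hist1h2ap, was higher in DFO by at least 0.25 on the log2 scale, where 1.24% of 7476 genes were. One, Hist1h2bc, was lower by as much, where 2.31% of genes were. With 1 member in each direction these counts describe those genes and not the family. The counting interval lay above 0 for 5 of the 13 members, below 0 for 6 and across 0 for 2 (Hist1h1a and Hist1h2be), and the median difference was -0.02. Of the 48 members under the minimum, 34 had intervals that held 0, and their differences ran from -0.20 to 0.26, the highest being that of Hist1h2bh.

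Hist1h2ap was higher in DFO by 0.49 (0.46 to 0.52). The difference was 0.52 (0.45 to 0.58) in S and 0.46 (0.43 to 0.50) in G2/M cells, and in G1-like cells, with 113 and 89 molecules, 0.17 (-0.21 to 0.55). At equal depth the share of cells with a molecule was 31.3% in vehicle and 39.1% in DFO, and without thinning 56.4% and 61.5%. The libraries pooled mice of both sexes as the cells' own transcripts show, and female cells gave a difference of 0.51 and male cells one of 0.48. The gene was higher in DFO in 7 of 7 clusters (0.40 to 0.89) and in 13 of 13 combinations of cluster and phase with at least 50 cells in each library (0.24 to 1.09), with the interval above 0 in 12. Its neighbour in type Hist1h2ae, with 0.07 (0.04 to 0.10), did not share that size.

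Hist1h2bc was lower in DFO by a difference of -0.26 (-0.32 to -0.20), just past the limit of 0.25. The difference was seen in G2/M cells, with -0.38 (-0.47 to -0.29), while in S (-0.03) and G1-like (-0.06) cells the intervals held 0. With G1-like, S and G2/M cells given the same weight as each other in both libraries, it was -0.11, short of the limit. This weighting raises G1-like cells, where the interval held 0, far above their own share of either library. It therefore cannot show how much of the difference came from unlike phase shares, which was not tested. Without that weighting, female cells gave -0.31 and male cells -0.16, the latter short of the limit. The G1-like share, in which Hist1h2bc is highest, was 7.68% of scored cells in vehicle and 4.86% in DFO. Over 13 combinations of cluster and phase it was lower in DFO with the interval below 0 in 4, all of them G2/M cells (clusters 1, 2, 4 and 5), and the range was -0.63 to 0.17. Megakaryocyte marker levels also differed between the libraries, and their part in this value was not tested beyond the cluster values.

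The linker genes Hist1h1c, Hist1h1e, Hist1h1d and Hist1h1b were lower in DFO by log2 differences of -0.22, -0.17, -0.16 and -0.08, all with intervals below 0 and, over whole libraries, short of the 0.25 limit. Within phases 2 of them passed it, Hist1h1c in G2/M (-0.26, -0.31 to -0.21) and Hist1h1e in G1-like cells (-0.29, -0.53 to -0.05). Hist1h1c was lower in 7 of 7 clusters (-0.27 to -0.07), 3 of them with the interval below 0. Hist1h1b did not keep 1 direction: it was higher in DFO in 4 clusters, by as much as 0.54 in cluster 4, and lower in the megakaryocyte-like cluster (-0.19). The H1 sum likewise ran from -0.19 to 0.30 over the clusters, higher in 3 of 7, with the interval above 0 in cluster 4 (0.30) and the HSC-like cluster (0.07) and below 0 in 3. Hist1h4d was higher by 0.14 (0.11 to 0.17) overall and in 7 of 7 clusters (0.06 to 0.39). The H2A sum, which includes Hist1h2ap, was higher in 7 of 7 clusters (0.13 to 0.52). In cluster 0 it was 202 and 221 CPM, of which Hist1h2ap gave 61.5 and 81.2 CPM, and other members were not summed apart within clusters. The H4 sum was higher in 7 of 7 (0.03 to 0.27), with the interval above 0 in 6. In the few G1-like cells, Hist1h1a (0.59, 0.09 to 1.07), Hist1h3d (0.37, -0.04 to 0.79) and Hist1h4d (0.32, 0.02 to 0.63) also lay past 0.25, with wide intervals.

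**Figure D4:**
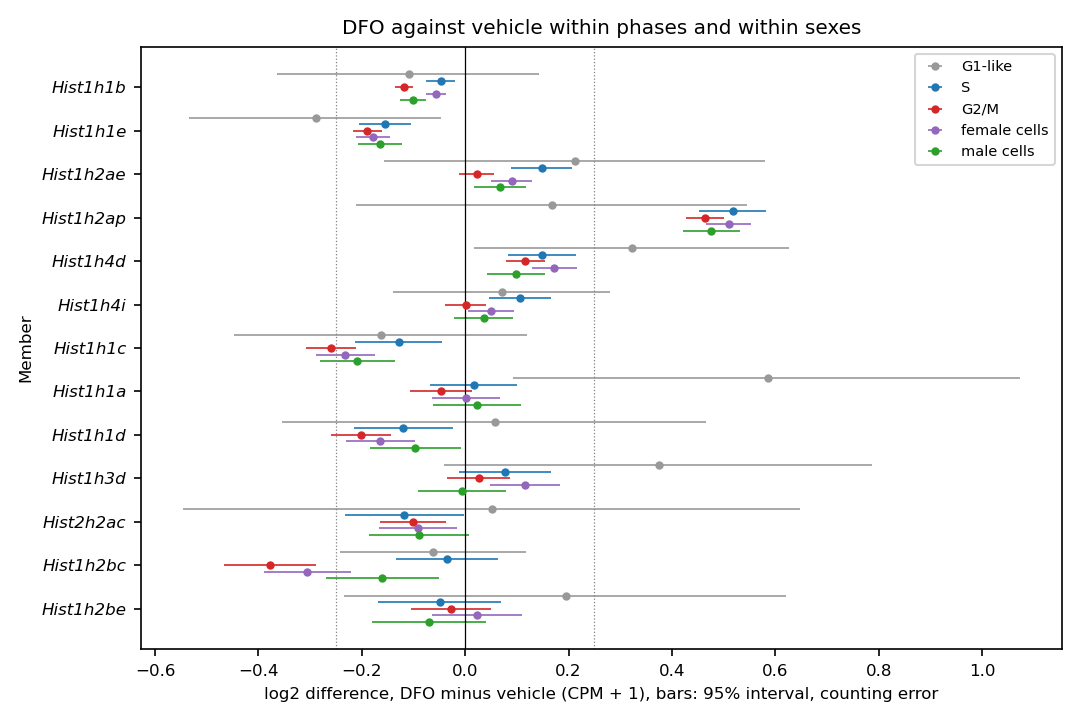
The horizontal axis gives the log2 difference in CPM + 1 of DFO from vehicle for the 13 members, in G1-like, S and G2/M cells and in female and male cells (colours), with bars for 95% counting intervals and dotted lines at -0.25 and 0.25. Hist1h2ap lies past 0.25 in S (0.52), G2/M (0.46), female (0.51) and male (0.48) cells, and Hist1h2bc past -0.25 in G2/M (-0.38) and female (-0.31) cells.

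Genes that serve the histone mRNAs and proteins were followed from 3 lists. Of 19 genes for histone transcription and mRNA processing, 17 passed 10 CPM and none reached 0.25 in either direction with DFO (median 0.07, from -0.17 for Sympk to 0.19 for Ccne2). Slbp, which encodes the stem-loop binding protein, stood at 202 and 216 CPM. Slbp was highest in S cells (272 CPM in vehicle, 160 in G1-like and 176 in G2/M), though it was itself 1 of the genes used to score S phase. Npat, the coactivator of histone gene transcription, was in neither scoring list and differed less, at 23.6, 30.1 and 25.02 CPM. Over all vehicle cells with a phase the histone sum was highest in G2/M, though within cluster 4 it was lower in G2/M than in S. Slbp, Ccne1 (34.5 CPM in S and 11.3 CPM in G2/M) and E2f1 (55.6 and 24.8 CPM) were highest in S.

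All 15 histone chaperones of the second list passed the minimum and none reached 0.25 with DFO (median 0.06). The highest was Nasp, a chaperone of H1 and H3 with H4, at 243 and 284 CPM (0.22), followed by Mcm2 (0.13), and the lowest were Hjurp (-0.04) and Supt16 (-0.03). Asf1b, which hands on H3 with H4, followed the histone course over phases with 11.5, 63.2 and 67.6 CPM in vehicle. Of 11 replacement histones, a class whose genes generally make polyadenylated mRNA outside S phase too, 10 passed and none reached 0.25 (median -0.03). Of the 9 that passed and were in neither scoring list, 1 was higher in G2/M than in G1-like vehicle cells by at least 1, beside 3.59% of all genes. In S none was, beside 2.71%. H2afz (0.13) and H2afy (0.10) were highest and H2afv (-0.16) and H1fx (-0.13) lowest. H2afz alone, at 3921 CPM in vehicle, was above the sum of the 61 clustered genes, and H3f3a (2551 CPM) and H3f3b (1965 CPM) were as well.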

How the data were processed

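Droplet 3′ libraries (Chromium v3) of both cultures were sequenced on BGISEQ-500 at 2 lanes each, per the labels' protocols. The submitters' processing notes name FastQC 0.11.9, Trim Galore 0.6.5, Cell Ranger 3.0.2 and mm10. The gene annotation, the cell filter and the handling of multi-mapped reads were not given in the sources used here. The deposited values are natural log values of scaled molecules per cell; every nonzero value came out as a whole molecule (tolerance 0.05), and these molecules were summed per library. Differences are log2 of CPM + 1. CPM intervals are exact Poisson, those of differences and shares exact binomial (Clopper-Pearson), at 95%, and cover counting error only. Calls needed 10 CPM in either sum and a log2 difference of 0.25 for DFO or 1 for phases. Phases (scanpy 1.11.5) came from cells thinned to 10000 molecules, which left out 351 vehicle and 433 DFO cells. Clusters used leiden at resolution 0.5. No doublet caller was run, and cells with molecules of both sexes (211 vehicle, 335 DFO) were left out as an alternative. The estimators were tested on simulated Poisson counts with known fold changes. That test holds no spread between cells or cultures and no shared reads, so it checks the calculation only. The text names every member at 10 CPM or more, members at the extremes, 4 genes from earlier knowledge of steady expression, and the extremes of each list. Other genes named were chosen after their values were seen, as were the sectors and the values within clusters. Members and lists were chosen with earlier results of these data known. One medium supplement, the same in both cultures, is not reported here.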

Additional observations from a re-analysis of the deposited data

How the results depend on the processing

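The histone sum of DFO against vehicle (-0.00748) took either sign over whole libraries: 0.0180 as a mean over cells, 0.00648 in thinned cells, 0.00596 in female and -0.0165 in male cells, -0.0274 scaled by the median of gene ratios (which shifts all genes by 0.02) and -0.0445 without Hist1h2ap. S against G1-like in vehicle (1.48) was 1.38 as a mean over cells, 1.39 in thinned cells, 1.42 in female and 1.63 in male cells, 1.54 with unthinned scores and 1.32 with a DNA replication list for S. In DFO (1.49) it was 1.61 in male cells, 1.62 with unthinned scores and 1.30 with the DNA replication list. Comparing the highest with the lowest quartile of the S score gave 0.31 in both libraries, 1 member higher in each, and reversed Hist1h4d (-0.12 in vehicle and -0.21 in DFO) and Hist1h2bc in DFO (0.50). By construction that lowest quartile is no G1-like group, since 85.2% of its cells were in G2/M. Members higher in DFO numbered 1, and 2 with a minimum of 5 CPM or none. Members lower in DFO numbered 1, and 0 in male cells, at equal phase shares, with a pseudocount of 10 or with a minimum of 20 CPM. Members higher in S numbered 9 in vehicle and 10 in DFO, 20 in each without a minimum, and 5 in DFO with a pseudocount of 10. Hist1h2ap kept its direction under 10 alternatives (0.43 to 0.53), as did Hist1h2bc (-0.34 to -0.11). Of 480 alternatives for single members, 378 stayed inside the counting interval of the reported value. The sign changed in 15, of which 3 (named above) were of differences past their limit and the other 12 of differences short of it. Members under 10 CPM are limited by depth. No paired analysis was possible because each treatment had 1 library.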
